A study of Rattus norvegicus with 6 samples.

Results

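The genes described here are 10 non-collagen components of fibrotic scar matrix, Fn1, Postn, Dcn, Lum, Tnc, Lox, Fbn1, Thbs2, Bgn and Sparc. They were matched by name, each to 1 row of the 33455 genes in the deposited count table. The choice of members was made with earlier results of these data known. Its part in the contrasts with all tested genes below was not tested. RNA came from the lesion centre of the spinal cord, a piece of about 5 mm3, of wild type Norway rats with a contusion at segment T9. The Piezo Gel+US group (3 libraries) received a piezoelectric gel and the Gel+US group (3 libraries) a gel without that name. Both groups had the contusion and ultrasound at 100 Hz and 1 W/cm2 for 10 min a day over 4 weeks, and no uninjured or ultrasound-free animals were analysed here. A piezoelectric material turns mechanical strain into electrical charge.

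After a contusion that breaks the meninges or the vessels, fibroblasts of the meninges and of vessel walls lay down a fibrotic core rich in collagen. The non-collagen genes divide by role. Fibronectin (Fn1), tenascin-C (Tnc), periostin (Postn), thrombospondin-2 (Thbs2) and SPARC (Sparc) are glycoproteins that set how cells hold to the matrix. Decorin (Dcn), biglycan (Bgn) and lumican (Lum) are small leucine-rich proteoglycans, which bind collagen fibrils and control their width and spacing. Fibrillin-1 (Fbn1) builds the microfibrils of elastic fibres, and lysyl oxidase (Lox) cross-links collagen and elastin.

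Total counts per library ran from 17212653 to 21436820, so counting error was small for every member, whose lowest count was 60, for Postn in Gel+US replicate 3. Libraries of 1 group differed widely in tissue make-up, and replicate 2 of each group stood apart. Marker sums are given in CPM (counts per 1e6) on library totals scaled by the trimmed mean of M-values (TMM). The fibroblast list, with 18 of 18 genes detected, summed to 439, 1130 and 491 CPM in Piezo Gel+US replicates 1 to 3 and to 367, 1010 and 240 CPM in Gel+US replicates 1 to 3. Of its 15 tested genes 9 were highest in Gel+US replicate 2 and 6 in Piezo Gel+US replicate 2, where Col15a1 alone stood at 364 CPM. Dpt, Pi16, Cd34 and Lsp1 went the other way within Piezo Gel+US and were lowest in its replicate 2. The neuron list (13 of 13 matched genes detected) ran against the fibroblast sum, with 7066, 1725 and 3808 CPM in Piezo Gel+US and 6249, 2242 and 14195 CPM in Gel+US. The tissue thus carried its defining neuronal markers in every library. The Schwann cell list (9 of 9 matched genes) summed to 72641 CPM in Piezo Gel+US replicate 2 and to 7845 and 13831 CPM in replicates 1 and 3 of that group, against 4962, 7652 and 7837 CPM in Gel+US. All 9 of its genes had a fitted fold change above 0 (median log2 fold change 1.80), 7 with an unadjusted p below 0.05 and 0 called. The bone list (10 of 10 genes) summed to 34.6 to 46.6 CPM in Piezo Gel+US and to 41.2, 152 and 16.7 CPM in Gel+US. The bone sialoprotein gene Ibsp stood at 20.05 CPM in Gel+US replicate 2 and at 0 in Gel+US replicate 3. Of the 9 tested bone genes 5 were highest in Gel+US replicate 2, while Sp7, Dmp1, Mepe and Sost were highest in other libraries. Alpl alone stood at 100 CPM in Gel+US replicate 2, most of the sum. The skeletal muscle list (9 of 9 matched genes) summed to 12.8, 105 and 10.6 CPM in Piezo Gel+US and to 8.42, 26.6 and 6.82 CPM in Gel+US. Its actin gene Acta1 stood at 72.1 CPM in Piezo Gel+US replicate 2 and at 1.11 to 3.00 CPM elsewhere. Of its 5 tested genes 2 were highest in Piezo Gel+US replicate 2, and 2 others, Tnnt3 and Mylpf, in Gel+US replicate 2. The part of these tissues in the results below was not tested, and the fold changes of the members are given with and without the library that moved them most. In bulk tissue, fewer cells of a type and less RNA per cell cannot be told apart.

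Promoter sequences were available for 5 of the 10 members in RefSeq (GRCr8 build), and 4 are shown, 3 from genes that varied together across libraries (Postn, Sparc and Lum) and 1 from a gene that varied apart from them (Tnc). Each line gives the 100 bases before the annotated start, in the direction of transcription, and capitals mark the motif matches described after them. Postn lies on the plus strand at chr2:140677961-140678060, Sparc on the minus strand at chr10:40038817-40038916, Lum on the plus strand at chr7:34245606-34245705 and Tnc on the minus strand at chr5:82476132-82476231.
Postn: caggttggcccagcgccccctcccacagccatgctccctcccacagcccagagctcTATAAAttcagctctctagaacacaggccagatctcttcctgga
Sparc: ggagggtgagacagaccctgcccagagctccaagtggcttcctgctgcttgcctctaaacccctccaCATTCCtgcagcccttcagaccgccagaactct
Lum: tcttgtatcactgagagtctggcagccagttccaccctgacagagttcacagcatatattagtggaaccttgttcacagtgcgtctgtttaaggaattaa
Tnc: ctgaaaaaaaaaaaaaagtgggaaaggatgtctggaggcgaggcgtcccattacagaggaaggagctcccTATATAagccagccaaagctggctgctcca

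The motifs were searched on both strands in the 250 bases before the start. The TATA box letters TATAAA were found in Postn, at positions -44 to -39 from the start, and in Tnc at -208 to -203, and 12.9% of all 33469 promoters held them. The related letters TATATA, held by 5.45% of promoters, were found in Tnc at -30 to -25 and did not overlap its TATAAA. Sparc held GGAATG, the letters of a TEAD element, in reverse at -33 to -28, as did 12.1% of promoters. The AP-1 letters TGANTCA were in 0 of the 5 members and in 6.34% of all promoters. Lum held CCAAT once in reverse at -130 to -126 (34% of promoters), and Tnc held the Sp1 letters GGGCGG at -248 to -243 (30.5%). Postn, Sparc and Lum thus shared none of these 6 motifs in this window. No sequence was available for Dcn, Fn1, Lox, Thbs2 and Bgn, so the search cannot tell which motifs those genes share.

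Levels between genes are compared as CPM per kilobase of gene model. Sparc was the most abundant in each of the 6 libraries, with 1088 ± 671 CPM per kilobase in Piezo Gel+US, against 674 ± 285 in Gel+US (SD, n = 3 each). Dcn followed with 278 ± 205 in Piezo Gel+US, against 133 ± 131 in Gel+US. By the mean of all libraries the order went on with Bgn (92.3), Fn1 (58.4), Lum (48.0), Thbs2 (13.0), Fbn1 (9.33), Lox (6.37), Postn (2.36) and Tnc (1.51 CPM per kilobase). Each gene overlapped its neighbour in this order across libraries: even Sparc at its lowest (480 in Gel+US replicate 3) lay below Dcn at its highest (505 in Piezo Gel+US replicate 2).

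**Figure D1:**
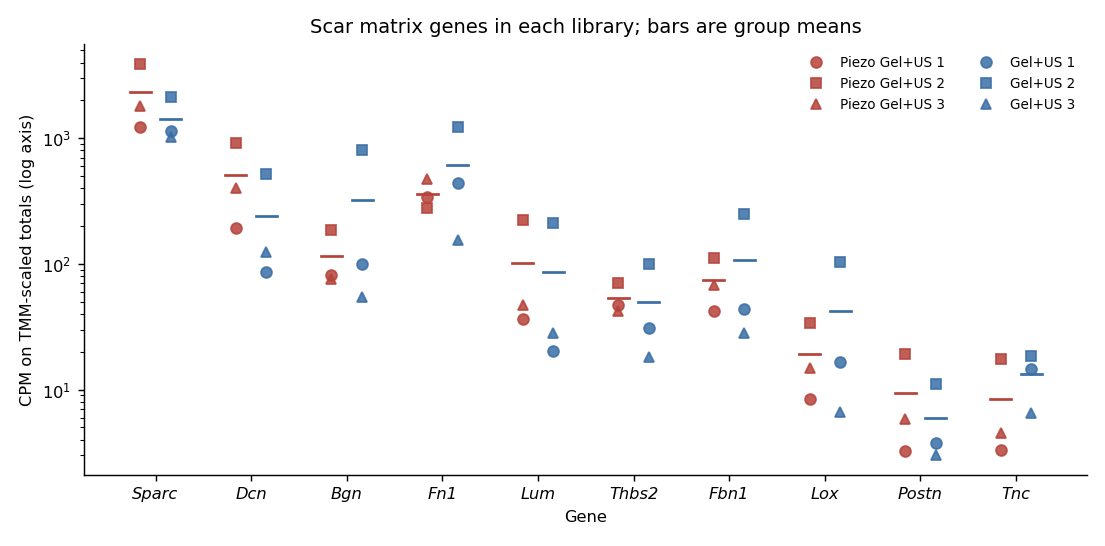
CPM of the 10 genes on a log axis, with Piezo Gel+US (red) left of Gel+US (blue) and a marker shape per replicate number; short bars are means of 3 libraries. The squares, replicate 2, are the highest of their group except for Fn1 in Piezo Gel+US, where replicate 2 is the lowest at 278 CPM.

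Fibronectin, the adhesive glycoprotein that integrins bind, measured 340, 278 and 472 CPM in Piezo Gel+US replicates 1 to 3 and 440, 1232 and 156 CPM in Gel+US replicates 1 to 3. The Gel+US libraries held both the highest and the lowest value, so the groups overlapped. The log2 fold change of Piezo Gel+US over Gel+US was -0.75 (95% interval -2.39 to 0.90, edgeR adjusted p = 0.994), and without Gel+US replicate 2 it was 0.28.

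Tenascin-C, which loosens cell adhesion and is induced in wounds, was scarce at 3.31, 17.5 and 4.55 CPM in Piezo Gel+US and 14.6, 18.7 and 6.52 CPM in Gel+US. In each pair of equal replicate number the Piezo Gel+US value was the lower one, although the groups overlapped through Piezo Gel+US replicate 2. Its log2 fold change was -0.65 (95% interval -2.32 to 1.02, edgeR adjusted p = 0.994). Leaving out replicate 2 of Piezo Gel+US gave -1.76, and leaving out its replicate 1 gave -0.29.

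Periostin, a fibroblast product that links collagen and fibronectin, measured 3.26, 19.3 and 5.79 CPM in Piezo Gel+US and 3.76, 11.1 and 3.01 CPM in Gel+US. Replicate 2 stood highest in each group and the other 4 libraries lay close together. Its log2 fold change was 0.67 (95% interval -1.20 to 2.54, edgeR adjusted p = 0.994). It was -0.40 with replicate 2 of Piezo Gel+US left out and 1.47 with replicate 2 of Gel+US left out.

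SPARC, a collagen-binding protein also made by endothelium and glia, measured 1221, 3935 and 1799 CPM in Piezo Gel+US and 1153, 2134 and 1023 CPM in Gel+US. It was higher in Piezo Gel+US at each replicate number, by log2 differences of 0.083, 0.88 and 0.82, and the groups overlapped. The log2 fold change was 0.69 (95% interval -0.55 to 1.93, edgeR adjusted p = 0.994) and 0.063 without Piezo Gel+US replicate 2.

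Thrombospondin-2, an inhibitor of vessel growth, measured 47.3, 70.4 and 42.1 CPM in Piezo Gel+US and 31.0, 99.9 and 18.3 CPM in Gel+US. The Piezo Gel+US values lay within the range of the Gel+US values. For Thbs2 the log2 fold change was 0.10 (95% interval -1.35 to 1.55, edgeR adjusted p = 0.996), and 1.10 without Gel+US replicate 2.

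The 3 proteoglycans did not share a direction. Decorin measured 195, 922 and 404 CPM in Piezo Gel+US and 85.7, 518 and 124 CPM in Gel+US. Each Piezo Gel+US library exceeded the Gel+US library of equal number, by log2 differences of 1.19, 0.83 and 1.71, while the groups overlapped through Gel+US replicate 2. The log2 fold change was 1.06 (95% interval -0.91 to 3.04, edgeR adjusted p = 0.994). It was 2.26 with Gel+US replicate 2 left out and 0.29 with Piezo Gel+US replicate 2 left out. With the replicate number as a block it was 1.24, with an unadjusted p of 0.00185 in edgeR that became 0.855 when adjusted over all genes. The summed Schwann cell, fibroblast and skeletal muscle lists were each higher in Piezo Gel+US at each replicate number, as Dcn and Sparc were. Of the 15 tested fibroblast genes, however, 6 had a fitted fold change above 0 and 9 below. The part of any of these lists in the values of Dcn and Sparc was not tested.

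Biglycan, the closest relative of decorin among the members, measured 82.1, 186 and 76.2 CPM in Piezo Gel+US and 100, 808 and 54.3 CPM in Gel+US. Gel+US replicate 2 stood far above all other libraries. For Bgn the log2 fold change was -1.48 (95% interval -3.89 to 0.92, edgeR adjusted p = 0.994), and 0.56 without that library.

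Lumican measured 36.3, 223 and 46.8 CPM in Piezo Gel+US and 20.4, 211 and 28.3 CPM in Gel+US. Replicate 2 of each group was about equally high and the other 4 libraries were low. The log2 fold change was 0.24 (95% interval -2.32 to 2.79, edgeR adjusted p = 0.994). Leaving out Gel+US replicate 2 gave 2.04, and leaving out Piezo Gel+US replicate 2 gave -1.08. Lum was higher in Piezo Gel+US at each replicate number, by log2 differences of 0.83, 0.077 and 0.72. The block fit gave 0.54 with an unadjusted p of 0.0401 and an edgeR adjusted p of 0.855.

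Fibrillin-1 measured 42.5, 112 and 68.1 CPM in Piezo Gel+US and 43.7, 252 and 28.4 CPM in Gel+US, and lysyl oxidase 8.48, 33.8 and 14.95 CPM in Piezo Gel+US and 16.7, 103 and 6.67 CPM in Gel+US. For both genes Gel+US replicate 2 was highest and Gel+US replicate 3 lowest, so the Piezo Gel+US values lay inside the Gel+US range. The log2 fold changes were -0.54 for Fbn1 (95% interval -2.53 to 1.45) and -1.14 for Lox (95% interval -3.56 to 1.27), each with an edgeR adjusted p of 0.994. Without Gel+US replicate 2 they were 1.03 and 0.69.

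**Figure D2:**
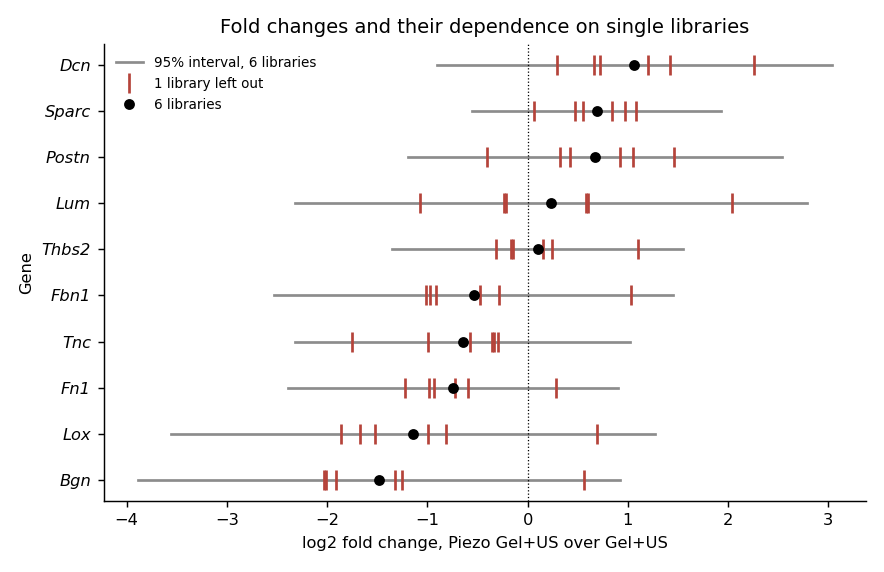
Log2 fold change of Piezo Gel+US over Gel+US for each gene (dot) with its 95% interval (grey) and the values with 1 library left out (red ticks). All 10 intervals include 0, and the ticks of 7 genes lie on both sides of 0, the exceptions being Dcn, Sparc and Tnc.

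By the edgeR quasi-likelihood test 0 of the 10 members were called at an adjusted p below 0.05, and 0 were at an unadjusted p below 0.05. The background was the same, with 0 of 17066 tested genes called (0%) and 359 at an unadjusted p below 0.05. DESeq2 and limma-voom also called 0 members, with 0 at that unadjusted level in either, though DESeq2 gave no p for Lum. The fit with the replicate block also called 0 members but had 2 at that level (Dcn and Lum), and 986 of all tested genes. Without Gel+US replicate 2 there were 2 members (Dcn and Thbs2) and 775 genes, and without Piezo Gel+US replicate 2 there were 1 member (Tnc) and 204 genes. In CPM, 0 of the 10 members had groups that did not overlap, against 6.81% of tested genes. The fitted fold change was above 0 for 5 members (Dcn, Sparc, Postn, Lum and Thbs2) and below 0 for the other 5, with a median of -0.22, while 47.1% of all tested genes lay above 0 with a median of -0.021. With the replicate 2 libraries of both groups left out, a choice made after seeing the data, 4 members had an unadjusted p below 0.05, and so did 910 of 17132 tested genes. These were Dcn (log2 fold change 1.51), Thbs2 (0.86), Lum (0.76) and Tnc (-1.42), each with an edgeR adjusted p of 0.809. At equal replicate number, Dcn, Lum and Sparc were higher in Piezo Gel+US at all 3 numbers and Tnc at 0. Fn1, Lox, Fbn1 and Bgn were higher at 1 of the 3 numbers, and Postn and Thbs2 at 2. The labels do not make these numbers pairs, and the share over all tested genes was not computed. All 10 members passed the low-count filter.

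The members varied more between libraries than most genes did. From the lowest to the highest library their log2 CPM spanned 1.94 (Sparc) to 3.93 (Lox), against a median of 1.02 over all tested genes. Between 2.41% of tested genes (for Lox) and 19.2% (for Sparc) spanned more. The members were chosen with earlier results of these data known, and the part of that choice in this contrast was not tested. Gel+US replicate 2 was highest for 6 members (Fn1, Tnc, Lox, Fbn1, Thbs2 and Bgn) and Piezo Gel+US replicate 2 for the other 4 (Dcn, Lum, Postn and Sparc), where 19% and 29.2% of all tested genes were highest. Gel+US replicate 3, which had the highest sum of neuronal markers, was lowest for 7 members.

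**Figure D3:**
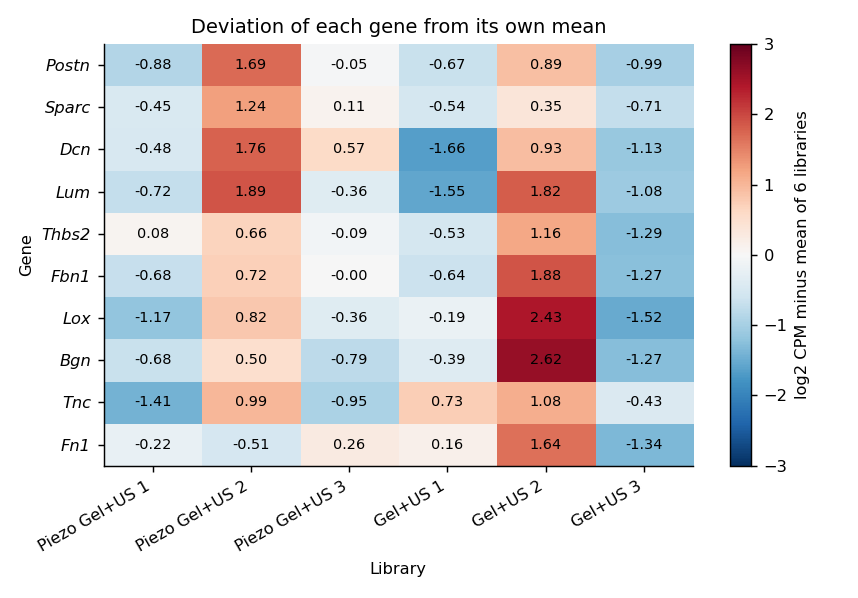
Log2 CPM of each gene minus its own mean over the 6 libraries, Piezo Gel+US columns left of Gel+US columns. Piezo Gel+US replicate 2 is the highest column for the top 4 rows and Gel+US replicate 2 for the other rows, reaching 2.62 for Bgn.

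Across the 6 libraries, pairs with a Pearson r of log2 CPM of at least 0.9 linked 8 members into 2 sets and left out Fn1 and Tnc. The first set held Postn, Sparc, Dcn and Lum, the genes highest in Piezo Gel+US replicate 2. The second held Lox, Fbn1, Bgn and Thbs2, highest in Gel+US replicate 2. Of the 45 pairs, 9 had such an r, and the median over all pairs was 0.791. These 9 lie inside the sets by definition, since the sets were drawn from them. Since 6 libraries allow 720 orders, the smallest two-sided exact permutation p is 0.00278, and adjusted over the 45 pairs the smallest was 0.0521, so 0 pairs passed (16 had an unadjusted p below 0.05).

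The border between the sets was not sharp. Lum and Fbn1, from different sets, had r = 0.896, as high as Lum and Sparc inside the first set and above Lox and Thbs2 (0.859) inside the second. On deviations from the group means 16 pairs reached 0.9, which were all 12 pairs inside the sets and 4 others. Those 4 were Lum with Fbn1 (0.913), Dcn with Fbn1 (0.908), Tnc with Postn (0.921) and Tnc with Sparc (0.929), so Tnc was no longer apart.

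The closest pair was Postn and Sparc, at r = 0.978 (exact permutation p = 0.00278, n = 6) and rho = 0.943 (exact permutation p = 0.0167). Their r was 0.955 without the replicate 2 libraries, the most distant from the median of Postn. Dcn and Sparc had r = 0.938 (exact permutation p = 0.00833) and rho = 0.943, and r = 0.996 when replicate 2 of Piezo Gel+US and replicate 1 of Gel+US were left out. These 2 were the only pairs of the 9 that kept r of at least 0.9 without the 2 libraries most distant from the median of the gene named first. For Dcn and Sparc the high Gel+US replicate 2 stayed in, so the 2 values rest on different libraries.

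Dcn and Lum are neighbours in the deposited table, on 1 strand with 37018 bases and 0 listed genes between them. They ranked the 6 libraries in the same order, with rho = 1 (exact permutation p = 0.00278) and r = 0.919 (exact permutation p = 0.00694), and r was 0.822 when the same libraries were left out. Lox had r = 0.971 with Fbn1 and 0.968 with Bgn (exact permutation p = 0.00417 and rho = 0.943 for each), which became 0.853 and 0.877 without Gel+US replicates 2 and 3. Fbn1 and Bgn, at r = 0.944 (exact permutation p = 0.00694) and rho = 0.829, depended more on the high libraries, with 0.527 left without the replicate 2 libraries. In the remaining 3 pairs, r was 0.940 for Postn and Lum, 0.925 for Fbn1 and Thbs2 and 0.909 for Postn and Dcn. The exact permutation p was 0.0111, 0.0111 and 0.0125 for these pairs, rho was 0.829 for each, and r was 0.565, 0.774 and 0.728 without the replicate 2 libraries.

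Fibronectin and tenascin-C tracked the other members least, with r = 0.63 for Fn1 and 0.631 for Tnc to the mean profile of the other 9. For Fn1, r with single members ran from 0.262 with Sparc (exact permutation p = 0.617, rho = 0.371) to 0.807 with Bgn (exact permutation p = 0.0681, rho = 0.486). With Bgn r became -0.773 without Gel+US replicates 2 and 3, so that relation rested on those libraries. Tnc was closest to Lox, at r = 0.769 (exact permutation p = 0.0708, rho = 0.829), and r was 0.872 without Piezo Gel+US replicates 1 and 3. As a background, between 0.492% (for Tnc) and 6.18% (for Sparc) of all tested genes had r of at least 0.9 with a given member. Postn, Dcn and Fbn1 had such an r with 3 of the other 9 members each, the other members with fewer, and Fn1 and Tnc with none. Most tested genes spanned a smaller range than the members, so this background was not matched for spread. Each library contributes all 10 values, so these pairs share depth, scaling and tissue make-up.

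**Figure D4:**
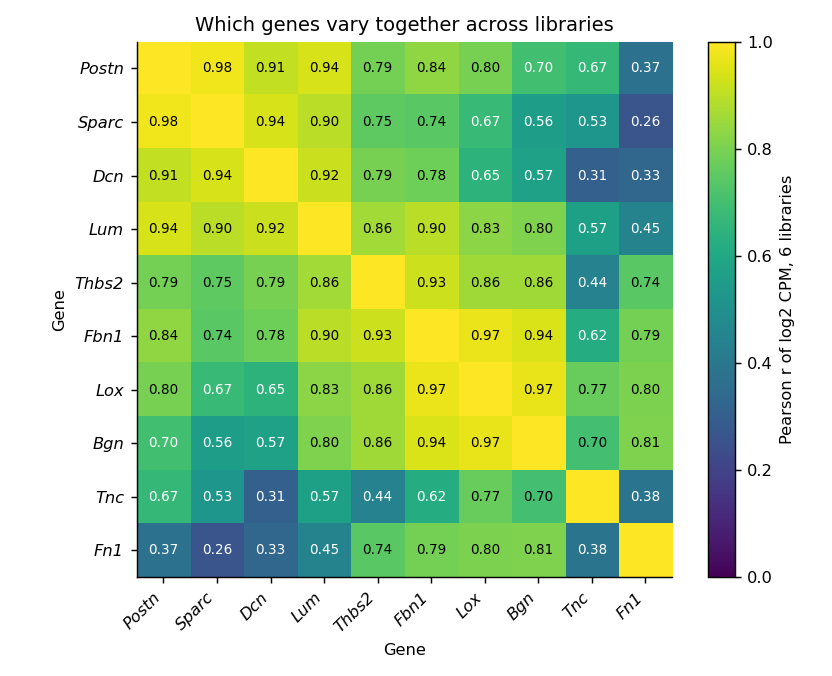
Pearson r of log2 CPM over the 6 libraries for each pair of genes, from 0 (dark) to 1 (bright). The 9 pairs of at least 0.9 defined the upper left block (Postn, Sparc, Dcn, Lum) and the middle block (Thbs2, Fbn1, Lox, Bgn). The row of Fn1 goes down to 0.26 with Sparc.

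The make-up of the 10 transcripts was compared as each gene's share of their summed counts per kilobase, which a common change of all 10 leaves as it is. Sparc, also made by endothelium and glia, took most of the sum in each library (51.1% to 78.1%). A change of the other members against Sparc therefore moves the shares. Dcn made up 13.5%, 19.3% and 18.4% in Piezo Gel+US and 6.59%, 14.5% and 11.03% in Gel+US, a difference of 6.35 percentage points. Bgn made up 4.38%, 3.01% and 2.69% in Piezo Gel+US and 5.95%, 17.5% and 3.75% in Gel+US, a difference of -5.69 points that was -1.49 without Gel+US replicate 2. Both overlapped between groups (exact two-sided permutation p = 0.2 for each, n = 3 each). Within replicate numbers 1 to 3 the Dcn share was higher in Piezo Gel+US by 6.87, 4.79 and 7.39 points. The Bgn share differed by -1.56, -14.45 and -1.06 points, so replicate 2 made up most of its difference. Tnc was the only gene whose shares did not overlap, with 0.0582%, 0.0929% and 0.0529% in Piezo Gel+US and 0.285%, 0.133% and 0.148% in Gel+US (p = 0.1 by the two-sided exact permutation test, the smallest that 3 against 3 allow). Adjusted over the 10 genes, p was at least 0.6 for each. Sparc took 70.3% to 72.2% in Piezo Gel+US and 75.9%, 51.1% and 78.1% in Gel+US, and its difference of 2.62 points became -6.03 without Gel+US replicate 2.

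**Figure D5:**
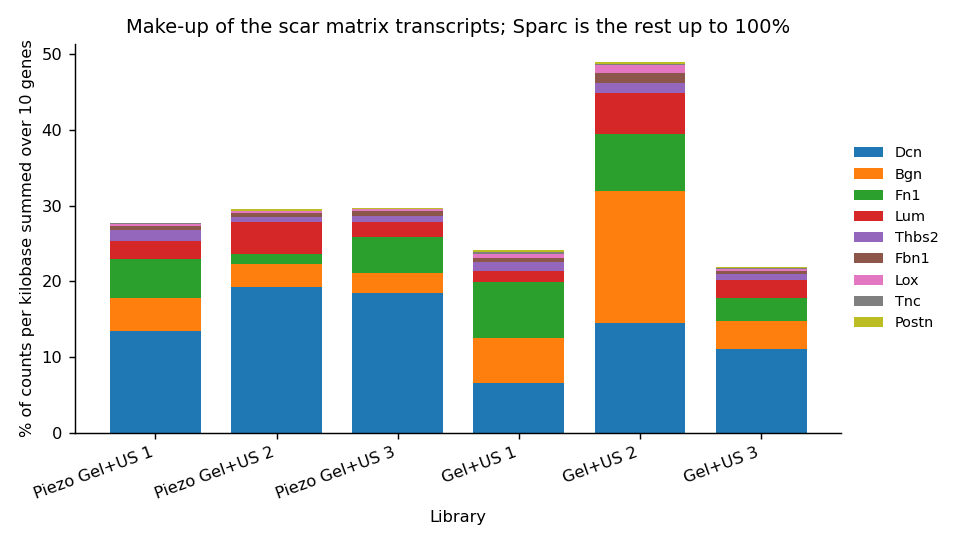
Stacked shares of 9 genes in the counts per kilobase summed over the 10, in percent, Piezo Gel+US left of Gel+US; Sparc fills the rest up to 100%. The Dcn block is 13.5% to 19.3% in Piezo Gel+US and 6.59% to 14.5% in Gel+US, and Gel+US replicate 2 has the largest Bgn block, 17.5%.

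The ratio of decorin to biglycan per kilobase, chosen after the values were seen, was 3.07, 6.403 and 6.86 in Piezo Gel+US and 1.11, 0.829 and 2.94 in Gel+US. All 3 Piezo Gel+US libraries lay above the Gel+US libraries, and replicate 1 of Piezo Gel+US came close to replicate 3 of Gel+US. The mean log2 difference was 1.88, or 1.51 without Gel+US replicate 2, with an exact two-sided permutation p of 0.1, the smallest possible, which gives no independent support to a ratio chosen in this way. Ratios of decorin to lumican and to fibronectin, computed beside it, overlapped between groups. Dcn over Lum was 5.78, 4.45 and 9.29 in Piezo Gel+US, against 4.51, 2.64 and 4.70 in Gel+US (exact permutation p = 0.3, n = 3 each). Dcn over Fn1 was 2.62, 15.15 and 3.91 in Piezo Gel+US, against 0.889, 1.92 and 3.62 in Gel+US (exact permutation p = 0.2, n = 3 each).

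Other matrix genes were described by the lists their roles put them in, and the fold changes of several named genes rested on 1 library. Of the 12 tested relatives among the small leucine-rich proteoglycans, 2 were higher and 10 lower in fitted fold change (median -0.67, against -0.021 for all tested genes), 0 were called, and 10 were highest in Gel+US replicate 2. Prelp, the most abundant of them, measured 55.4, 185 and 94.1 CPM in Piezo Gel+US and 57.3, 294 and 42.9 CPM in Gel+US. Aspn, which codes for asporin, had the lowest p on the lower side, with 7.47, 8.85 and 7.398 CPM in Piezo Gel+US and 10.6, 46.2 and 9.07 CPM in Gel+US. Its groups did not overlap, and its log2 fold change was -1.47 (95% interval -3.01 to 0.065, edgeR adjusted p = 0.994), or -0.32 without Gel+US replicate 2. On the higher side the lowest p was that of Nyx (log2 fold change 0.41) at 1.30 to 2.35 CPM.

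In the elastic fibre list, partners of Fbn1, 5 of 13 tested genes were higher and 8 lower (median -0.058), with 0 called. Ltbp3, a latent TGF-beta binding protein, measured 146, 265 and 152 CPM in Piezo Gel+US and 134, 296 and 117 CPM in Gel+US, and Fbln2 (fibulin-2) and Ltbp2 had log2 fold changes of 0.81 and -2.35. Without Piezo Gel+US replicate 2 that of Fbln2 was 0.14, and without Gel+US replicate 2 that of Ltbp2 was 0.67. In the list of cross-linking and collagen processing, partners of Lox, 8 of 20 were higher and 12 lower (median -0.15), with 0 called. Serpinh1, the collagen chaperone, measured 87.7, 355 and 74.5 CPM in Piezo Gel+US and 81.9, 244 and 65.2 CPM in Gel+US. Tgm2, a transglutaminase, and P4ha3, a prolyl hydroxylase subunit, had log2 fold changes of 0.77 and -0.95, and for Tgm2 it was 0.038 without Piezo Gel+US replicate 2.

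Of the other matricellular genes 7 of 21 were higher and 14 lower (median -0.28), with 0 called. Thbs1, a relative of Thbs2 that can activate latent TGF-beta, measured 64.9, 30.1 and 33.3 CPM in Piezo Gel+US and 118, 434 and 5.56 CPM in Gel+US, and its log2 fold change of -2.12 became -0.52 without Gel+US replicate 2. Spp1 (osteopontin) had a log2 fold change of 0.60 (0.24 without Piezo Gel+US replicate 2), and Sparcl1, the astrocytic relative of Sparc, was the most abundant and varied little, with 1484 to 2637 CPM in Piezo Gel+US and 1911 to 2874 CPM in Gel+US. Piezo Gel+US replicate 2, the library with the most Sparc, had the least Sparcl1. Among 14 tested collagens 5 were higher and 9 lower (median -0.12), with 0 called. The lowest p on the higher side belonged to Col5a3, with 130, 729 and 144 CPM in Piezo Gel+US and 83.5, 159 and 80.5 CPM in Gel+US. Its log2 fold change was 1.64, or 0.34 without Piezo Gel+US replicate 2. On the lower side it was Col8a1, with 14.8, 17.1 and 4.35 CPM in Piezo Gel+US and 13.7, 206 and 2.21 CPM in Gel+US. Its log2 fold change was -2.62 but 0.59 without Gel+US replicate 2, so the direction rested on that library. Col1a1, the most abundant collagen by mean log2 CPM, had a log2 fold change of -0.14, or 2.01 without Gel+US replicate 2.

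Of 22 tested receptors of the members 9 were higher and 13 lower (median -0.084), with 0 called. Lrp1, a scavenger receptor that takes up several matrix proteins, measured 1239, 916 and 1277 CPM in Piezo Gel+US and 1169, 1372 and 909 CPM in Gel+US. Sdc3 (syndecan-3) measured 407, 475 and 393 CPM in Piezo Gel+US and 353, 279 and 329 CPM in Gel+US without overlap (log2 fold change 0.41, 95% interval -0.055 to 0.87, edgeR adjusted p = 0.994), and Sdc2 had a log2 fold change of -1.12, or 0.051 without Gel+US replicate 2. In the TGF-beta list 3 of 12 were higher and 9 lower (median -0.22), with 0 called. Tgfb2, a TGF-beta ligand, measured 16.6, 12.5 and 17.3 CPM in Piezo Gel+US and 23.8, 31.0 and 22.2 CPM in Gel+US. The groups did not overlap, the log2 fold change was -0.73 (95% interval -1.26 to -0.20), the unadjusted p was 0.0143 and the edgeR adjusted p was 0.994. The log2 fold changes of the signal mediator Smad3 and of the receptor Tgfbr2, the most abundant of the list, were 0.61 and 0.69, or 0.22 and 0.064 without Piezo Gel+US replicate 2.

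The genes most like the members' common profile were sought by Pearson r with the members' mean deviation in log2 CPM, a selection that carries no test. That mean was -0.66, 0.97 and -0.16 in Piezo Gel+US replicates 1 to 3 and -0.53, 1.48 and -1.10 in Gel+US replicates 1 to 3. The 10 genes of highest r over the 6 libraries were Scarf2 (0.997), Prelp (0.994), C1r (0.992), Col6a1 (0.992), Dbr1 (0.991), Sdr39u1 (0.990), Col6a2 (0.988), Ltbp3 (0.987), Foxp1 (0.986) and Sned1 (0.986). In all, 659 tested genes (3.86%) had r of at least 0.9 with it. Scarf2 measured 26.5, 86.6 and 34.5 CPM in Piezo Gel+US and 28.1, 111 and 16.8 CPM in Gel+US. The closest genes thus included the collagen VI chains Col6a1 and Col6a2 and the complement protease gene C1r beside genes of small range such as Dbr1, the RNA lariat debranching enzyme, at 11.2 to 16.6 CPM.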

How the data were processed

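The table the authors deposited holds a whole-number read count for each gene and library, without normalisation, beside the name and model length of the gene. The submitters' processing notes name DESeq2 1.20.0, featureCounts 1.5.0-p3, HISAT2 2.0.5 and fastp 0.19.7 without roles. Build, annotation and strand setting are not given in the sources used here. Of the table's gene IDs, 0 occur in the GRCr8 RefSeq table, whereas 15093 rows share a symbol with it, so genes were matched by symbol. No member overlapped another gene with counts. Libraries were grouped by their labels, which call them biological replicates.

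Genes were fitted in edgeR 4.0.16 (R 4.3.3; robust quasi-likelihood, TMM, filterByExpr with minimum count 10 and total 15, group as the only term) and adjusted by Benjamini-Hochberg over 17066 genes. DESeq2 1.42.0 and limma 3.58.1 were alternatives. Fits were checked on simulated counts with larger fold changes than those of the members and less spread between libraries. The check therefore cannot tell whether changes of the size seen here would be called. Log2 CPM used a prior count of 2. Correlations and shares used exact permutation tests. List entries matched 264 of 283 symbols. The members and lists were chosen with earlier results of these data known. The genes named from each list are the lowest p on each side and the highest level.

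Deviations from the group means correlated at 0.253, 0.296 and 0.251 between libraries numbered 1, 2 and 3, all above 0.1. Piezo Gel+US replicate 3 also reached 0.198 with Gel+US replicate 1, and the other unlike numbers lay between -0.342 and -0.0408. Deviations within a group cancel out, so an unusual replicate 2 in both groups can give such values, and they cannot decide whether animals were paired. The labels do not say that the numbers mark pairs. Comparisons at equal number and the block fit are therefore descriptive, and the main fit took the groups as unpaired.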

Additional observations from a re-analysis of the deposited data

How the results depend on the processing

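No member and no gene was called in any of the 13 alternatives, in which 141 to 986 genes had an unadjusted p below 0.05. The lowest adjusted p of a member was 0.744, without Gel+US replicate 2. Dcn, Sparc and Tnc kept their direction in all of them, and the other 7 members did not. Over the fits with 1 library left out the log2 fold change ranged from -1.22 to 0.28 for Fn1, -0.40 to 1.47 for Postn, -1.08 to 2.04 for Lum, -1.86 to 0.69 for Lox, -1.02 to 1.03 for Fbn1, -0.32 to 1.10 for Thbs2 and -2.03 to 0.56 for Bgn. With the replicate 2 libraries of both groups left out, a choice made after seeing the data, it was 0.45 for Fn1, 0.0072 for Lox, 0.62 for Fbn1 and 0.039 for Bgn. By limma-voom and with the replicate block, which changed no call, it was 0.021 and 0.0085 for Fbn1, -0.65 and -0.62 for Bgn, -0.44 and -0.53 for Lox, -0.32 and -0.32 for Fn1, 0.55 and 0.54 for Lum and 0.45 and 0.43 for Thbs2. The cause was not tested. The pairs that tracked each other numbered 9 to 16 with 1 library left out (16 without Piezo Gel+US replicate 2) and 16 on deviations from the group means. Share differences ranged from -0.025 to 0.025 points for Postn, -1.03 to 0.98 for Lum, -0.26 to 0.15 for Thbs2 and -6.03 to 7.49 for Sparc with 1 library left out. On counts without length they were 0.11 for Lum and 0.099 for Thbs2. The number of libraries, 3 a group, limits the precision of each value, and for genes near 2 CPM such as Nyx counting error adds to it.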

Other observations

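Some matrix genes, picked after their values were seen, stood high in Gel+US replicate 2. Comp, a cartilage and tendon glycoprotein of the thrombospondin family, measured 29.6, 51.2 and 25.8 CPM in Piezo Gel+US replicates 1 to 3 and 12.1, 423 and 4.51 CPM in Gel+US replicates 1 to 3. Ltbp2, a microfibril protein, measured 5.98, 8.75 and 6.31 CPM in Piezo Gel+US and 7.92, 99.0 and 0.852 CPM in Gel+US. Loxl1, a lysyl oxidase relative of elastic fibres, measured 8.64, 26.9 and 6.10 CPM in Piezo Gel+US and 11.5, 138 and 2.10 CPM in Gel+US. Tnr, the tenascin of central glia, measured 82.3, 13.6 and 50.3 CPM in Piezo Gel+US and 83.3, 33.9 and 120 CPM in Gel+US. In both groups it was lowest in replicate 2, where Tnc was the highest of its group.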
